A study of Mus musculus with 4 samples.

Results

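The GATA transcription factors and their FOG cofactors were examined in mouse embryonic fibroblasts (MEF) as 7 genes chosen by name, *Gata2*, *Gata3*, *Gata4*, *Gata5*, *Gata6*, *Zfpm1* and *Zfpm2*, out of 20805 protein-coding genes in the deposited table. These are 5 GATA factors and 2 FOG cofactors, and each gene was represented by its transcript with the longest gene body. The cells were MEF from C57BL/6 embryos at embryonic day 15.5, which the study's methods describe as immortalized with SV40, and were either *Hmga2*+/+ or *Hmga2*-/-, the latter lacking the architectural chromatin protein HMGA2. Both genotypes were starved overnight in 1% FCS and then treated for 24 h with water (Ctrl) or with TGFB1 at 10 ng/ml, a cytokine known to activate fibroblasts. RNA-seq of total RNA gave 1 library for each of the 4 combinations, so the spread between replicates is unknown and no p-value is given. Whether a library holds the cells of 1 embryo or of several is not given in the sources used here.

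GATA factors are zinc finger proteins that bind DNA at sites with the core letters GATA and set the identity of many lineages. *Gata2* is known for blood stem cells and endothelium, *Gata3* for T cells and trophoblast, and *Gata4*, *Gata5* and *Gata6* for heart, gut and primitive endoderm. The FOG proteins encoded by *Zfpm1* (FOG1) and *Zfpm2* (FOG2) do not rely on DNA binding of their own but attach to a GATA zinc finger and bring in corepressors. The study followed *Gata6* as a target gene of HMGA2, and the question here is how the family as a whole stands in cells with and without *Hmga2*.

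Values are RPKM, that is, read numbers corrected for transcript length and for library depth, so that levels of different genes can be set side by side. Low values fall on steps of single reads, from which library depths of 56140000 to 57300000 mapped reads were derived. Intervals are 95% exact intervals of the reads behind a value (Poisson for a level, conditional binomial for a ratio) and, like the floor of 3 reads, cover counting error only. They compare libraries, not conditions. *Hmga2* had 3544 and 9957 reads in the *Hmga2*+/+ Ctrl and TGFB1 libraries and 0 in both *Hmga2*-/- libraries, and *Ctgf*, *Smad7* and *Acta2*, known to respond to TGFB1, were all higher with TGFB1 in both genotypes. Of 10 fibroblast markers, 9 to 10 reached 1 RPKM in each library, with *Lum* the one below it in 3 of them. Of the markers of other cell types, *Hba-a1* and *Hbb-bs* (blood), *Tie1* (endothelium), *Myl7* (heart muscle) and *Myod1*, *Myog* and *Ckm* (skeletal muscle) were at 0 in all 4 libraries. Others reached 1 RPKM. *Cd68* (blood), *Kdr* (endothelium) and *Krt19* (epithelium) did so in all 4, and *Tek* (endothelium) and *Tnni3* (heart muscle) in both Ctrl libraries. *Krt19* had 1.90 and 1.92 RPKM in the *Hmga2*+/+ libraries and 4.925 and 4.935 RPKM in the *Hmga2*-/- libraries. Summed over 6 genes each, epithelial markers came to 2.63 to 5.84 RPKM, blood markers to 1.27 to 1.63 RPKM and neural markers to 14.9 to 24.6 RPKM, lower in both TGFB1 libraries than in both Ctrl libraries. That order came from *Map2*, which had 18.1 and 22.6 RPKM with water and 8.82 and 9.20 RPKM with TGFB1, whereas *Tubb3* and *Sox2* were higher with TGFB1 in both genotypes. The 5 skeletal muscle markers came to 0.0870 to 2.66 RPKM, highest in *Hmga2*-/- TGFB1, where *Acta1* passed 1 RPKM.

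Promoter sequences from RefSeq (GRCm38.p6, 250 bases before to 50 bases after a start site) were found for 4 of the 7 genes, with 5 promoters in all, and those of *Gata2* and *Gata3* are printed because the TGFB1 ratios of these GATA factors had opposite signs. Capitals mark a match, on either strand, to a hexamer of the GATA motif, which was searched as AGATAA and as AGATAG and with a leading T as TGATAA and as TGATAG. The *Gata2* promoters lie on the plus strand of chromosome 6, upstream at chr6:88193641-88193940 and downstream at chr6:88198414-88198713, and the *Gata3* promoter on the minus strand at chr2:9878551-9878850.
Gata2 upstream promoter: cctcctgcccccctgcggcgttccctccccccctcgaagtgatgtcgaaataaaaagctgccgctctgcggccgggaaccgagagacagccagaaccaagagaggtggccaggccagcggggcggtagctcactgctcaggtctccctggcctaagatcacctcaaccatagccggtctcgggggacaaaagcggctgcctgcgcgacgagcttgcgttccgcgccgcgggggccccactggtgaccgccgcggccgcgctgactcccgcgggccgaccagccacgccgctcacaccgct
Gata2 downstream promoter: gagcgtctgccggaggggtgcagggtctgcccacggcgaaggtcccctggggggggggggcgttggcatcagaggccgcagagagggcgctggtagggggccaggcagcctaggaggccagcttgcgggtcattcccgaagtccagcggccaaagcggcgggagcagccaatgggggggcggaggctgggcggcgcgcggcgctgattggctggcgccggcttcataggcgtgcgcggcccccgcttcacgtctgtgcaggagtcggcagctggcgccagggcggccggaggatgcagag
Gata3 promoter: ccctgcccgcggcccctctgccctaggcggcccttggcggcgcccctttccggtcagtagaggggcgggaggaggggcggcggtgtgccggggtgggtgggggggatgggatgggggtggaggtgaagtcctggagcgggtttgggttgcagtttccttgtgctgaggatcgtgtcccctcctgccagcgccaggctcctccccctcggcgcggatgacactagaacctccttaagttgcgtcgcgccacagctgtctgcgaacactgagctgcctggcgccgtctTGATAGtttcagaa
The *Gata3* promoter held a single GATA hexamer, TGATAG, 37 bases into the transcript, and neither *Gata2* promoter held one. A match to any of the 4 hexamers was present in 29.8% of 32851 promoters of this length, and TGATAG in 7.29%. The *Gata3* promoter also held CAGACA, a longer form of the SMAD binding element, on the opposite strand at base 4 of the transcript, a motif found in 21.0% of promoters. The AP-1 motif TGANTCA (7.81% of promoters) and TATAAA (13.6%) were not found in any of the 5 promoters, which says only that these letters are absent from the windows. GC content was 69.3% and 73.7% in the *Gata2* promoters and 67.3% in the *Gata3* promoter, against a median of 52.7% over all promoters.

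Expression of the family in MEF was dominated by *Gata2* and *Zfpm2*, while *Gata3*, *Gata6* and *Zfpm1* were present at low levels and *Gata4* and *Gata5* were close to or under the floor. In the *Hmga2*+/+ Ctrl library *Zfpm2* stood at 6.67 RPKM (interval 6.37 to 6.98) and *Gata2* at 6.36 RPKM (6.00 to 6.75), intervals that overlap. *Zfpm1* (1.55 RPKM), *Gata6* (1.45 RPKM) and *Gata3* (1.44 RPKM) followed, and each overlapped its neighbour in this order. *Gata4* had 0.0890 RPKM and *Gata5* 0.00500 RPKM. With TGFB1 in *Hmga2*+/+ MEF the order was *Zfpm2*, *Gata2*, *Gata3*, *Zfpm1*, *Gata6*, *Gata4* and *Gata5*, and the only neighbours with overlapping intervals were *Zfpm1* with *Gata6* and *Gata4* with *Gata5*. In both *Hmga2*-/- libraries *Gata2* came before *Zfpm2*, followed by *Gata3*, *Zfpm1* and *Gata6*. There *Gata2* overlapped *Zfpm2*, and *Zfpm1* overlapped *Gata6*, in the Ctrl library, whereas with TGFB1 all neighbours were apart. Since bulk RNA was measured, fewer cells that express a gene and less RNA per cell cannot be told apart in any of these values.

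**Figure D1:**
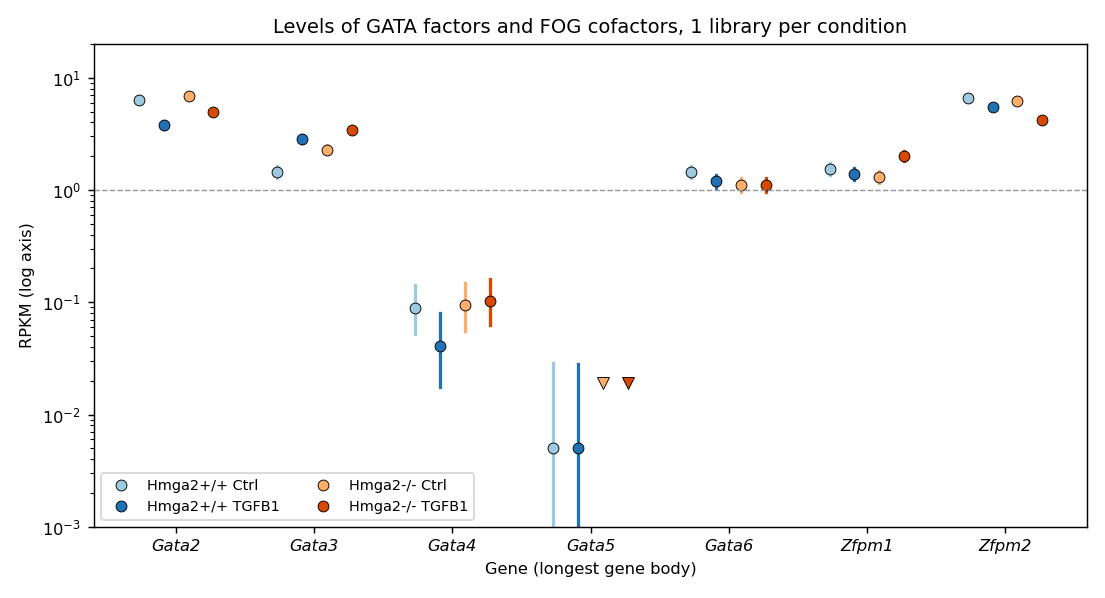
RPKM of the 7 genes (log axis) in the 4 libraries, with vertical lines for 95% exact Poisson intervals from counting error and a dashed line at 1 RPKM. Downward triangles mark the upper limit for *Gata5* where it had 0 reads, and a lower interval end under 0.001 RPKM is cut at the axis. *Gata2* and *Zfpm2* lie between 3.80 and 6.88 RPKM, *Gata4* and *Gata5* at or under 0.103 RPKM.

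*Gata2* (chr6:88193891-88207032, plus strand, mm10) was lower with TGFB1 in both genotypes. It had 6.36 RPKM in the *Hmga2*+/+ Ctrl library, 3.80 RPKM in *Hmga2*+/+ TGFB1, 6.88 RPKM in *Hmga2*-/- Ctrl and 4.95 RPKM in *Hmga2*-/- TGFB1, from 680 to 1217 reads. Both TGFB1 values were thus below both Ctrl values. The log2 ratio of TGFB1 over Ctrl was -0.74 (interval -0.88 to -0.61) in *Hmga2*+/+ and -0.47 (-0.60 to -0.35) in *Hmga2*-/- MEF. Between the genotypes the Ctrl libraries differed by a log2 ratio of 0.11 (-0.0054 to 0.23), not detectable at this depth, and the TGFB1 libraries by 0.38 (0.24 to 0.53), with *Hmga2*-/- higher.

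*Gata3* (chr2:9857078-9878600, minus strand) went the other way. Its level was 1.44 RPKM in *Hmga2*+/+ Ctrl, 2.84 RPKM in *Hmga2*+/+ TGFB1, 2.29 RPKM in *Hmga2*-/- Ctrl and 3.44 RPKM in *Hmga2*-/- TGFB1, from 259 to 628 reads. It was higher with TGFB1 than with water in each genotype, and higher in *Hmga2*-/- than in *Hmga2*+/+ MEF under each treatment. The log2 ratio of TGFB1 over Ctrl was 0.98 (0.76 to 1.20) in *Hmga2*+/+ and 0.59 (0.41 to 0.77) in *Hmga2*-/- MEF. The log2 ratio of *Hmga2*-/- over *Hmga2*+/+ was 0.67 (0.44 to 0.90) in the Ctrl libraries and 0.28 (0.11 to 0.45) with TGFB1.

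*Gata4* (chr14:63198914-63245271, minus strand) was detected at a trace level. It had 17 reads in *Hmga2*+/+ Ctrl, 8 in *Hmga2*+/+ TGFB1, 18 in *Hmga2*-/- Ctrl and 20 in *Hmga2*-/- TGFB1, or 0.0410 to 0.103 RPKM. The *Hmga2*+/+ TGFB1 library was the low one, and the other libraries lay close together. The log2 ratio with TGFB1 was -1.12 in *Hmga2*+/+ MEF with an interval from -2.54 to 0.17, and 0.13 (-0.85 to 1.15) in *Hmga2*-/- MEF, so neither difference was detectable at this depth. With TGFB1, *Hmga2*-/- over *Hmga2*+/+ gave a log2 ratio of 1.33 (0.086 to 2.72) that rests on 20 against 8 reads. *Gata5* (chr2:180325088-180334679, minus strand) had 1 read in each *Hmga2*+/+ library and 0 in each *Hmga2*-/- library. All of these are under the floor, so no ratio is given, and a count of 3 reads would correspond to 0.0153 to 0.0156 RPKM. *Gata1*, the founding member of the family in red blood cells, was at 0 in all 4 libraries.

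*Gata6* (chr18:11052510-11085635, plus strand) ranked near the median of all protein-coding genes, with 50.9% to 52.8% of genes below it in each library. Only 48.6% to 49.9% of genes reached 1 RPKM in a library, with a median of 7.40 to 7.82 RPKM among them. *Gata6* was thus low among the genes that reached 1 RPKM. Its level was 1.45 RPKM in *Hmga2*+/+ Ctrl, 1.20 RPKM in *Hmga2*+/+ TGFB1, 1.11 RPKM in *Hmga2*-/- Ctrl and 1.11 RPKM in *Hmga2*-/- TGFB1, from 259, 218, 200 and 201 reads. The *Hmga2*+/+ Ctrl library was the highest, and the *Hmga2*-/- libraries were nearly equal. The log2 ratio with TGFB1 was -0.28 (-0.54 to -0.013) in *Hmga2*+/+ and -0.0013 (-0.29 to 0.29) in *Hmga2*-/- MEF. *Hmga2*-/- over *Hmga2*+/+ gave -0.38 (-0.66 to -0.11) in the Ctrl libraries and -0.11 (-0.39 to 0.18) with TGFB1, so a difference between genotypes with TGFB1 was not detectable at this depth. None of the 4 ratios of *Gata6* reached 1.5-fold. By qRT-PCR the study reported lower *Gata6* expression in *Hmga2*-/- MEF and an increase with TGFB1 in *Hmga2*+/+ MEF. The *Hmga2*-/- over *Hmga2*+/+ ratio of the Ctrl libraries here, -0.38, had the same sign as that lower expression. The TGFB1 ratio in these *Hmga2*+/+ libraries, -0.28, had the opposite sign to that increase. The qRT-PCR values came from independent experiments, and the values here from 1 library per condition.

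Among the FOG cofactors, *Zfpm1* (chr8:122282141-122337247, plus strand) was set apart by the *Hmga2*-/- TGFB1 library. It had 1.55 RPKM in *Hmga2*+/+ Ctrl, 1.40 RPKM in *Hmga2*+/+ TGFB1, 1.31 RPKM in *Hmga2*-/- Ctrl and 2.01 RPKM in *Hmga2*-/- TGFB1, from 292, 270, 250 and 386 reads. The first 3 values lie close together and the fourth lies above them. The log2 ratio with TGFB1 was -0.14 (-0.39 to 0.10) in *Hmga2*+/+ and 0.62 (0.38 to 0.85) in *Hmga2*-/- MEF. Between genotypes it was -0.24 (-0.49 to 0.013) with water and 0.52 (0.30 to 0.75) with TGFB1. An annotated gene, Gm20388, overlaps *Zfpm1* on the same strand, so reads of the pair cannot be told apart.

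*Zfpm2* (chr15:40655042-41104592, plus strand) was lower with TGFB1 in both genotypes, as *Gata2* was. It stood at 6.67 RPKM in *Hmga2*+/+ Ctrl, 5.52 RPKM in *Hmga2*+/+ TGFB1, 6.26 RPKM in *Hmga2*-/- Ctrl and 4.18 RPKM in *Hmga2*-/- TGFB1, from 1181 to 1856 reads. The *Hmga2*-/- TGFB1 library had the lowest value. The log2 ratio with TGFB1 was -0.27 (-0.37 to -0.18) in *Hmga2*+/+ and -0.58 (-0.69 to -0.47) in *Hmga2*-/- MEF, the latter just short of 1.5-fold. *Hmga2*-/- over *Hmga2*+/+ gave -0.092 (-0.19 to 0.0030) with water and -0.40 (-0.51 to -0.29) with TGFB1.

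**Figure D2:**
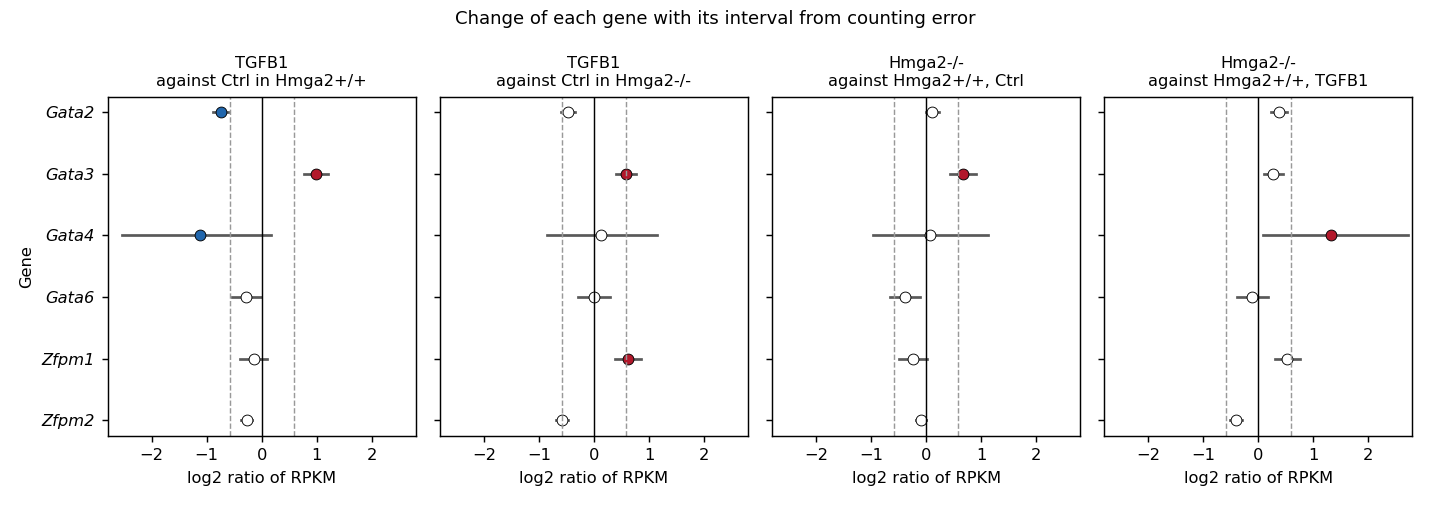
log2 ratio of RPKM for 6 genes in the 4 comparisons of libraries, with horizontal lines for 95% exact intervals from counting error and dashed lines at 1.5-fold in each direction. Red points are at least 1.5-fold higher, blue points at least 1.5-fold lower and white points under 1.5-fold, and *Gata5* is left out because it had at most 1 read. *Gata3* is red in 3 of the comparisons, and the intervals of *Gata4* are the widest.

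Counted with the threshold of the study (at least 1.5-fold, 0 RPKM set to 0.001), the family did not move as a block. With TGFB1 in *Hmga2*+/+ MEF 1 of 7 genes was higher (*Gata3*), where 11.6% of all 20805 genes were, and 2 were lower (*Gata2* and *Gata4*), where 19.2% of all genes were. In *Hmga2*-/- MEF 2 of 7 were higher with TGFB1 (*Gata3* and *Zfpm1*, 13.0% of all genes) and 0 were lower (18.4%). These calls lay just past the threshold, at 1.504-fold for *Gata3* and 1.53-fold for *Zfpm1*, and *Zfpm2* was just short of it in the other direction. Between the Ctrl libraries 1 was higher in *Hmga2*-/- (*Gata3*; 7.75% of all genes) and 1 was lower (*Gata5*; 7.41%), and between the TGFB1 libraries 1 was higher (*Gata4*; 8.64%) and 1 was lower (*Gata5*; 7.24%). The calls of *Gata5* rest on 1 against 0 reads. Only 5 of the 7 genes reached 1 RPKM in at least 1 of the libraries compared, and these were at 1.11 RPKM or more in all 4. Among those 5, *Gata3* was higher and *Gata2* lower with TGFB1 in *Hmga2*+/+ MEF (11.3% and 16.6% of genes with that level), *Gata3* and *Zfpm1* were higher and 0 lower in *Hmga2*-/- MEF (13.1% and 14.7%), and *Gata3* was higher and 0 lower between the Ctrl libraries (2.01% and 1.55%). Between the TGFB1 libraries 0 were higher and 0 lower (2.84% and 1.45%). With counts this small the shares of the family cannot be set apart from those of all genes.

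The responses to TGFB1 were then compared between the genotypes as the log2 ratio in *Hmga2*-/- minus that in *Hmga2*+/+ MEF, with intervals from counting error by the delta method. Among the genes with at least 10 reads in every library *Zfpm1* had the widest separation, 0.76 (0.43 to 1.09). *Gata4* gave 1.25, with no interval because 1 library had 8 reads. *Gata2* gave 0.27 (0.084 to 0.46), a smaller decrease in *Hmga2*-/-. *Gata3* gave -0.39 (-0.67 to -0.11), a smaller increase in *Hmga2*-/- from a higher Ctrl value, and *Zfpm2* gave -0.31 (-0.45 to -0.16), a larger decrease. For *Gata6* the value was 0.28 with an interval from -0.11 to 0.66, so a difference was not detectable at this depth. With 1 library per condition no interaction could be tested. Comparisons of treatment and of genotype share libraries and are not independent of each other.

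The table held 17 transcripts of the 7 genes, and transcripts of 1 gene share reads. *Gata6* had 2. The long form uc008ebk.1 is the one described above, and the short form uc008ebj.1 (chr18:11052510-11057583, 3779 bases) ends inside the gene and, by the GENCODE annotation, keeps the intron sequence after the second exon. The short form had 0.330, 0.277, 0.308 and 0.223 RPKM in *Hmga2*+/+ Ctrl, *Hmga2*+/+ TGFB1, *Hmga2*-/- Ctrl and *Hmga2*-/- TGFB1, from 70, 60, 66 and 48 reads. It was thus the minor form in every library. Its *Hmga2*-/- over *Hmga2*+/+ log2 ratio in the Ctrl libraries was -0.10 (-0.60 to 0.41), an interval that holds both 0 and the -0.38 of the long form. The long form had 189, 158, 134 and 153 more reads than the short form in the same order of libraries. These differences rest on the same reads as the long form. The short form also holds intron sequence that the long form lacks, so they isolate neither form.

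*Zfpm2* had 3 transcripts that share a start and differ in their end. The form with the shortest span, uc007voq.1, had 6.38, 4.89, 6.68 and 3.40 RPKM in the same order of libraries, and the middle form uc007vor.1 had 4.94, 3.65, 5.14 and 2.93 RPKM. Both were lowest in *Hmga2*-/- TGFB1, as the full-length form was. In *Hmga2*-/- MEF the log2 ratio with TGFB1 was -0.97 (-1.16 to -0.79) for uc007voq.1 and -0.81 (-0.97 to -0.65) for uc007vor.1, both past 1.5-fold, against -0.58 for the full-length form. The forms of *Gata2* that start at the upstream and downstream promoters, uc009cvc.2 and uc009cvd.2, share all but their first exon and had nearly equal values, so these reads do not separate the promoters. In *Gata3*, a separate transcript inside an intron, uc057bmi.1, had 0.123, 0.240, 0.276 and 0.225 RPKM from 22, 44, 50 and 41 reads. Its *Hmga2*+/+ Ctrl value was the low one, and the other values lay close together.

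**Figure D3:**
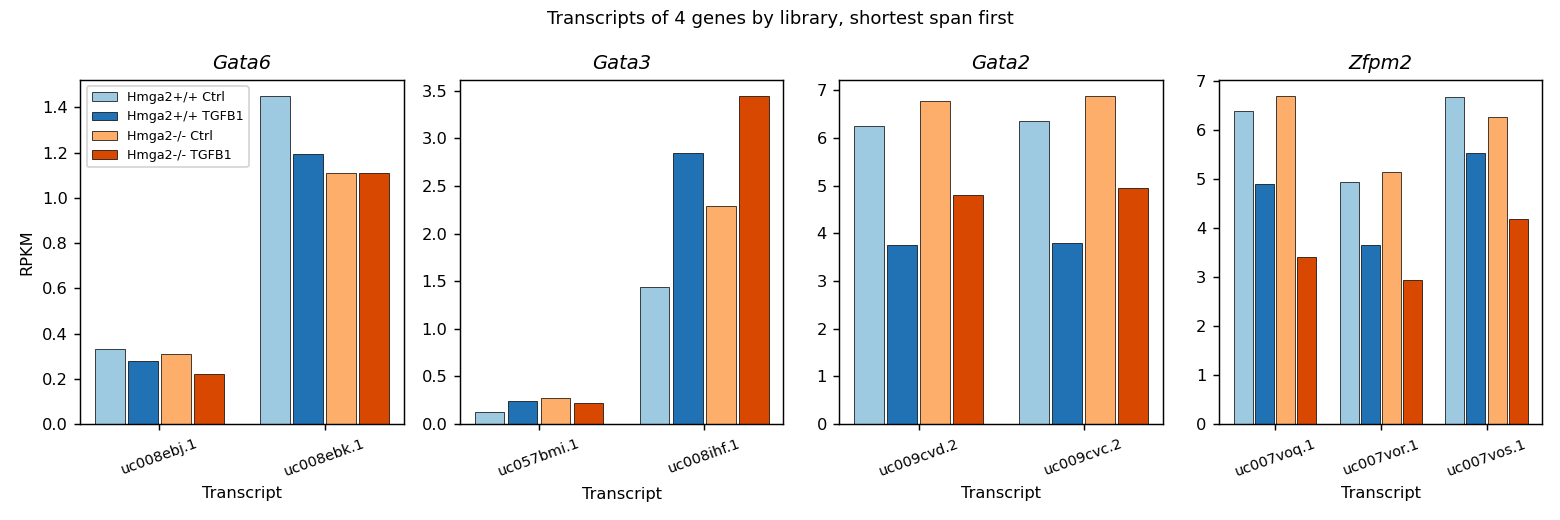
RPKM of transcripts of *Gata6*, *Gata3*, *Gata2* and *Zfpm2* in the 4 libraries, ordered in each panel from the shortest span to the longest, each panel with its own axis from 0. The short *Gata6* form stays at or under 0.330 RPKM, and all 3 *Zfpm2* forms are lowest in *Hmga2*-/- TGFB1.

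Within 100 kb of the 7 genes the table had transcripts named for 26 other genes, of which 12 reached 1 RPKM in at least 1 library, namely *Rpn1* and *Eefsec* near *Gata2*, *Taf3* near *Gata3*, *Ctsb* and *Fdft1* near *Gata4*, *Lama5*, *Rps21*, *Mir3091* and *Cables2* near *Gata5*, and *Zc3h18*, *Cyba* and *Mvd* near *Zfpm1*. Near *Gata2*, *Rpn1* had a log2 ratio with TGFB1 of 0.43 (0.40 to 0.47) in *Hmga2*+/+ MEF, opposite in sign to that of *Gata2*, and *Eefsec*, a selenocysteine elongation factor, had -0.11 (-0.28 to 0.065). Near *Gata3*, *Taf3*, a subunit of the general transcription factor TFIID, had 0.35 (0.28 to 0.42) in *Hmga2*+/+ and 0.14 (0.074 to 0.21) in *Hmga2*-/- MEF. *Mir3091* rests on 0 to 5 reads and lies within *Rps21*. None of the other neighbours in this group was past 1.5-fold in any of the 4 comparisons, the widest ratio being -0.55 (-0.90 to -0.21) for *Cyba* with TGFB1 in *Hmga2*+/+ MEF. The divergent noncoding gene 1010001N08Rik, named here after its values were seen because it overlaps the start of *Gata6* on the other strand, had 7, 4, 6 and 2 reads in the order of libraries used above, too few to compare.

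Genes linked to the GATA factors were examined in 7 lists, which were written with earlier results of these data known and hold some established TGFB1 targets. Each list is described by its count over all listed genes, where many have few reads, and by its count over genes with a mean of at least 1 RPKM over the 4 libraries, called expressed here. That limit was chosen after seeing the data, since a limit on either library of a pair lets a gene pass through the library where it is high. A limit on the mean does not remove this. *Edn1* passed with 0.376 and 0.547 RPKM in the Ctrl libraries, through 1.61 and 4.05 RPKM with TGFB1. In the other direction, *Tek* and *Mef2c* passed through the Ctrl libraries, with under 1 RPKM in both TGFB1 libraries. The counts of expressed genes thus rest in part on genes chosen by their high libraries. Of all 10314 expressed genes 11.1% were at least 1.5-fold higher and 15.3% lower with TGFB1 in *Hmga2*+/+ MEF, with a median log2 ratio of -0.039, and 12.8% were higher and 13.7% lower in *Hmga2*-/- MEF, with a median of 0.019. In *Hmga2*-/- over *Hmga2*+/+ MEF 1.91% were higher and 1.15% lower with water, and 2.59% were higher and 1.45% lower with TGFB1. The counts over all listed genes stand against the shares of all 20805 genes given above, which were 11.6% higher and 19.2% lower, 13.0% and 18.4%, 7.75% and 7.41%, and 8.64% and 7.24% in the same order.

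Of 12 smooth muscle genes linked to GATA6, 8 were higher and 1 lower with TGFB1 in *Hmga2*+/+ MEF and 9 were higher and 1 lower in *Hmga2*-/- MEF. Of the 8 expressed ones 6 were higher and 0 lower in each genotype (11.1% and 12.8% of expressed genes were higher), with median log2 ratios of 1.43 and 1.52. *Ptgs2*, which makes prostaglandins, had 3.51 RPKM with water and 45.6 RPKM with TGFB1 in *Hmga2*+/+ MEF, and 4.98 and 69.5 RPKM in *Hmga2*-/- MEF. Further pairs of values are given in this way, Ctrl before TGFB1 and *Hmga2*+/+ before *Hmga2*-/-. *Tagln*, an actin-binding protein of smooth muscle, went from 9.66 to 64.8 RPKM and from 18.1 to 109 RPKM. *Acta2*, smooth muscle actin, was also higher in *Hmga2*-/- than in *Hmga2*+/+ MEF, with 48.2 against 15.9 RPKM in the Ctrl libraries and 165 against 58.3 RPKM with TGFB1. Between the genotypes 3 of the 8 expressed genes were higher in *Hmga2*-/- with water (1.91% of expressed genes) and 6 with TGFB1 (2.59%), and 0 were lower. Over all 12 these counts were 4 and 7 (7.75% and 8.64% of all genes), with 0 lower (7.41% and 7.24%). *Gata6* itself was not higher with TGFB1 in either genotype, and its part in this list was not tested.

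Of 16 cardiac partners and targets of GATA4, GATA5 and GATA6, 2 were higher and 4 lower with TGFB1 in *Hmga2*+/+ MEF, and 5 were higher and 6 lower in *Hmga2*-/- MEF. Among the higher ones were *Nppb*, with 1 and 10 reads in *Hmga2*+/+ and 4 and 18 reads in *Hmga2*-/- MEF, and *Tnnt2*, with 0 and 15 and with 2 and 22 reads, both named after their values were seen. Of the 5 expressed genes of the list 3 were lower in each genotype (15.3% and 13.7% of expressed genes) and 0 higher. *Mef2c*, a partner in heart muscle, went from 2.21 to 0.823 RPKM and from 1.86 to 0.543 RPKM. *Tbx5*, a T-box factor of heart and forelimb, went from 8.20 to 3.83 RPKM and from 13.7 to 5.15 RPKM. *Hand2* went from 1.28 to 0.493 RPKM and from 2.46 to 1.01 RPKM. The 6 heart muscle markers summed to 0.582 to 1.30 RPKM per library, nearly all from *Tnni3*, with *Myl7* at 0. Between the genotypes 2 of the 5 expressed genes were higher in *Hmga2*-/- and 0 lower with water (1.91% and 1.15% of expressed genes), and 2 were higher and 1 lower with TGFB1 (2.59% and 1.45%). Over all 16, 7 were higher and 0 lower with water (7.75% and 7.41% of all genes). With TGFB1 8 were higher and 2 lower (8.64% and 7.24%). Those higher with water include genes with few reads, *Hand1* and *Isl1* again named after their values were seen. *Hand1* had 0 against 5 reads, *Isl1* 4 against 10, *Nppb* 1 against 4 and *Tnnt2* 0 against 2.

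Of 17 blood and endothelial partners and targets of GATA2, 7 were higher and 4 lower with TGFB1 in each genotype. *Edn1* is in this list and in the smooth muscle list, and it is counted as higher in both. Of the 6 expressed ones 3 were higher and 2 lower in *Hmga2*+/+ MEF (11.1% and 15.3% of expressed genes), and 3 were higher and 3 lower in *Hmga2*-/- MEF (12.8% and 13.7%). In *Hmga2*-/- over *Hmga2*+/+ MEF 1 of the 6 was higher with water (1.91% of expressed genes) and 3 with TGFB1 (2.59%), and 0 were lower. Over all 17, 4 were higher and 3 lower with water (7.75% and 7.41% of all genes). With TGFB1 9 were higher and 0 lower (8.64% and 7.24%). Those 9 include genes with very few reads, named after their values were seen. *Emcn* and *Tal1* had 0 against 1 read, *Lyl1* had 2 against 3 and *Pecam1* had 3 against 5. *Runx1*, a partner of GATA2 in blood formation, went from 1.17 to 8.46 RPKM and from 1.71 to 12.6 RPKM. *Kdr*, a VEGF receptor, went from 1.11 to 4.46 RPKM and from 1.46 to 7.39 RPKM. *Tek*, the angiopoietin receptor, went the other way, from 2.75 to 0.330 RPKM and from 5.65 to 0.686 RPKM. *Kdr* and *Tek* were also the only 2 of 6 endothelial markers to reach 1 RPKM, and the summed level of those markers was 3.89, 4.86, 7.12 and 8.16 RPKM in the order of libraries used above. Their part in the list was not tested.

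Of 20 primitive endoderm and lung targets and partners of GATA6, 3 were higher and 4 lower with TGFB1 in *Hmga2*+/+ MEF and 2 were higher and 5 lower in *Hmga2*-/- MEF. Of the 9 expressed ones 1 was higher and 3 lower in *Hmga2*+/+ MEF (11.1% and 15.3% of expressed genes), and 1 was higher and 2 lower in *Hmga2*-/- MEF (12.8% and 13.7%). The higher one was *Lamb1*, a laminin chain of basement membranes, which went from 20.4 to 45.1 RPKM and from 17.6 to 44.5 RPKM. *Pdgfra*, a growth factor receptor of mesenchyme and primitive endoderm, went from 24.4 to 11.2 RPKM and from 27.1 to 15.3 RPKM. Between the genotypes 0 of these 9 genes were past 1.5-fold in either direction under either treatment. Over all 20 there were 2 higher and 1 lower with water (7.75% and 7.41% of all genes). With TGFB1 there were 0 higher and 3 lower (8.64% and 7.24%).

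Of 11 partners and targets of GATA3 in T cells and trophoblast only 2 were expressed. *Il1rl1*, an interleukin receptor, went from 18.9 to 156 RPKM and from 36.5 to 189 RPKM. It was the 1 expressed gene past 1.5-fold in each of these comparisons and between the Ctrl libraries. Of all expressed genes 11.1%, 12.8% and 1.91% were higher there. Over all 11, 2 were higher and 1 lower with TGFB1 in *Hmga2*+/+ MEF (11.6% and 19.2% of all genes). In *Hmga2*-/- MEF 4 were higher and 0 lower (13.0% and 18.4%). In *Hmga2*-/- over *Hmga2*+/+ MEF 2 were higher and 1 lower with water (7.75% and 7.41%). Between the TGFB1 libraries 4 were higher and 0 lower (8.64% and 7.24%). Among those 4 were *Il5* (0 against 3 reads) and *Tfap2c* (0 against 2), named after their values were seen. Of 12 corepressors that FOG proteins recruit, all 12 were expressed. With TGFB1 in *Hmga2*+/+ MEF 1 was lower (*Mta3*, 3.37 to 2.06 RPKM), where 15.3% of expressed genes were, and 0 higher (11.1%). In the other comparisons 0 were past 1.5-fold. There 12.8% of expressed genes were higher and 13.7% lower with TGFB1 in *Hmga2*-/- MEF. Between the genotypes these shares were 1.91% and 1.15% with water and 2.59% and 1.45% with TGFB1. Of 8 relatives with a GATA zinc finger, 7 were expressed, and the same shares of expressed genes apply to them. *Rere* was lower with TGFB1 in both genotypes (26.0 to 17.1 RPKM and 23.5 to 14.2 RPKM), and *Trps1*, a repressor that binds GATA sites, was lower in *Hmga2*-/- MEF (23.3 to 13.6 RPKM) and lower in *Hmga2*-/- than in *Hmga2*+/+ MEF with TGFB1 (13.6 against 20.7 RPKM).

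**Figure D4:**
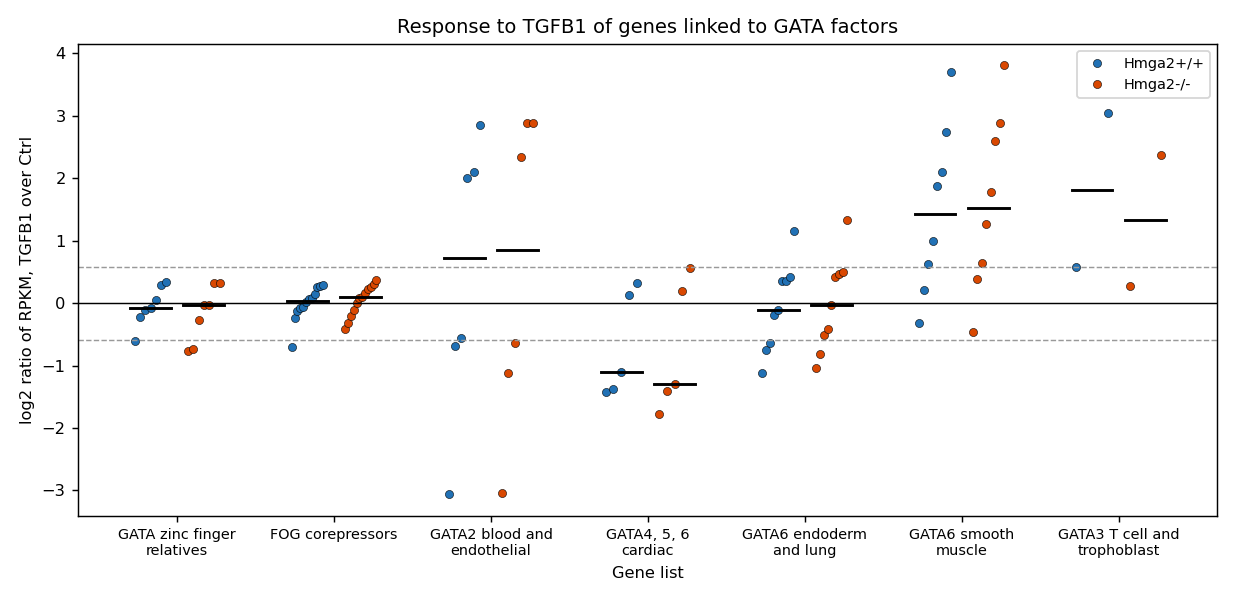
log2 ratio of RPKM, TGFB1 over Ctrl, for the genes of 7 lists linked to GATA factors, in *Hmga2*+/+ (blue) and *Hmga2*-/- MEF (orange), for genes with a mean of at least 1 RPKM over the 4 libraries. Points are genes, black bars their medians and dashed lines 1.5-fold in each direction, and the smooth muscle list has medians of 1.43 and 1.52.

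The genes whose pattern over the 4 libraries was most like that of *Gata6*, by the root mean square difference of centred log2 RPKM among 9744 genes at 1 RPKM or more in all 4 libraries, were *Pkmyt1* (0.0119), *Erg28* (0.0135) and *Cope* (0.0178). In total 223 genes lay within 0.0848, the counting error of the *Gata6* pattern itself, so that the nearest ones are not set apart from the others.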

How the data were processed

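RNA-seq was analysed for 4 libraries of MEF, 1 per combination of *Hmga2* genotype and treatment. Reads were trimmed (trimmomatic) and aligned to mm10 (HISAT2) by the authors, who deposited RPKM per UCSC known gene transcript from HOMER, counting the annotated strand. The table's header names exons as the counted feature, the study's methods name genes. The study speaks of duplicates of an experiment, and pooling is not stated. A transcript took the name of the same-strand gene of GENCODE vM21 that covers 50% or more of its span, and the longest gene body was taken per gene. Mapped reads per library (56140000 to 57300000) were derived from the steps of low RPKM values, and 100% of the values tested lay within 0.1 of a whole read. Ratios used 0.001 for 0 RPKM, and a call is at least 1.5-fold. With 1 library per condition and RPKM values, no test was run. List counts use genes with a mean of at least 1 RPKM over the 4 libraries, chosen after seeing the data. Steps were tested on simulated data. All 7 genes, their transcripts, expressed neighbours within 100 kb and at most 4 genes per list and comparison could be named. The members and lists were chosen with earlier results of these data known. *Ctgf* is listed by GENCODE under a newer symbol, and 1 other gene of the treatment check is not reported here. Alternatives changed the pseudocount, scaling, transcript, filter and threshold. Python 3.11.15, numpy 2.4.6, pandas 2.3.3, scipy 1.17.1 and matplotlib 3.10.9 were used.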

Additional observations from a re-analysis of the deposited data

Results flagged for a closer look

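*Zfpm1* had opposite signs of the response to TGFB1 in the genotypes, -0.14 in *Hmga2*+/+ and 0.62 in *Hmga2*-/- MEF on the log2 scale, a difference of 0.76. *Gata4* also had opposite signs, -1.12 and 0.13, a difference of 1.25 that rests on 8 to 20 reads per library. With 1 library per condition neither difference was tested.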

How the results depend on the processing

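Of 120 values of single genes under the alternatives, 116 stayed within the counting interval. The transcript setting gave the same or nearly the same value for each of these genes, so it could hardly move them. For the *Gata4* response difference, given above without an interval, -0.27 to 2.77 was used, with 8 reads in 1 library. The 4 values that moved did so under a pseudocount of 1, which shrinks ratios of low genes by construction. They were *Gata3* with TGFB1 in *Hmga2*+/+ MEF (0.66) and *Zfpm1* with TGFB1 in *Hmga2*-/- MEF (0.38). The others were *Gata3* between the Ctrl libraries (0.43) and *Gata4* between the TGFB1 libraries (0.083). The sign changed for 1 value, that of *Gata6* with TGFB1 in *Hmga2*-/- MEF, which was 0.052 with libraries rescaled by the median ratio and -0.0013 as deposited. In *Hmga2*+/+ MEF the same rescaling gave -0.19 for *Gata6* with TGFB1, against -0.28 as deposited. The deposited value has an interval that ends at -0.013. No interval was computed for the rescaled value, so it was not shown to leave out 0. The order of the levels was the same in all 16 recomputations, but a pseudocount or a rescaling of a whole library cannot change it. Only the choice of transcript could, and it gave the same or nearly the same levels.

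Of 48 counts of members past the threshold, 19 moved. With TGFB1 in *Hmga2*+/+ MEF the count of lower genes was 1 in place of 2 under a pseudocount of 0.1, a pseudocount of 1, the 1 RPKM filter and the 2-fold threshold, and the count of higher genes was 0 at 2-fold. The lower gene that remained was *Gata2* under the pseudocounts and the filter, and *Gata4* at 2-fold. In *Hmga2*-/- MEF the count of higher genes was 0 in place of 2 under both pseudocounts and at 2-fold. Between the Ctrl libraries higher genes were 0 in place of 1 under a pseudocount of 1 and at 2-fold, and lower genes 0 in place of 1 under both pseudocounts and the filter. Between the TGFB1 libraries both counts were 0 in place of 1 under both pseudocounts and the filter. Over all genes, a pseudocount of 1 moved the counts most, to 972 higher and 1198 lower from 2408 and 3990 with TGFB1 in *Hmga2*+/+ MEF, to 1125 and 1097 from 2699 and 3818 in *Hmga2*-/- MEF, to 116 and 67 from 1613 and 1542 between the Ctrl libraries and to 160 and 70 from 1797 and 1506 between the TGFB1 libraries. The 56 list counts were recomputed for genes with 1 RPKM in 1 of the 2 libraries compared, an alternative added after seeing the data. With TGFB1, lower cardiac genes were 4 in place of 3 in each genotype. In *Hmga2*+/+ MEF, genes higher with TGFB1 were 7 in place of 6 in the smooth muscle list. They were 4 in place of 3 in the GATA2 list. Between the TGFB1 libraries, higher GATA2 list genes were 2 in place of 3 and lower cardiac genes 0 in place of 1. The other list counts did not change. No paired analysis was possible because each condition has 1 library. Depth limits *Gata4* and *Gata5*, which had at most 20 reads.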
